A study of Mus musculus with 4 samples.

Results

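The 59 genes described here code for the kinases, checkpoint proteins, centromere and kinetochore subunits, chromosome compaction factors, motors and spindle proteins that carry a cell through mitosis. They were taken by gene symbol from a list of mitosis genes, and all 59 were measured by at least 1 probe set with a single symbol in the array's annotation, out of 18193 genes tested. Sgol1 is carried under its current symbol Sgo1. Mouse E14 embryonic stem cells, an established line kept undifferentiated by the cytokine LIF, were compared in 2 groups of 2 arrays, control RNAi and Npac RNAi. The target, Npac, carries the current symbol Glyr1 and is a nucleosome-binding chromatin protein that recognises methylated H3K36. The cells of both groups were grown in medium with LIF at 1000 units per ml and 15% serum, put under puromycin 24 hours after transfection of a short hairpin plasmid and collected after 3 days of selection. The treatment text of all 4 samples, those labelled control included, names the Npac hairpin, so which hairpin the control group received is not known here, and all arrays come from 1 cell line. Nothing in the labels says whether the replicates were separate cultures, so p-values measure only the spread between these arrays, which may be technical.

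In mitosis, cyclin B and CDK1 start chromosome condensation, Aurora and Polo-like kinases build the spindle, and kinetochores attach each chromosome to it. The spindle checkpoint holds back the anaphase-promoting complex until all chromosomes are attached, and separase then cuts the cohesin that holds sister chromatids together. Most genes of this programme are transcribed late in the cell cycle, when the MuvB complex with B-MYB (Mybl2) and FOXM1 activates promoters that carry a cell cycle homology region, and the same region serves repression by MuvB within the DREAM complex. Embryonic stem cells divide rapidly, and these transcripts are abundant in them.

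Mitosis genes were lower after Npac RNAi by small steps. Of the 59, 40 were called lower and 2 higher at a limma adjusted p under 0.05, with 17 not called (41 and 3 at an unadjusted p under 0.05, the third increase being Plk4), whereas 18.7% of all genes were called lower and 22.1% higher. The share of mitosis genes called lower was 67.8%. Small differences are more easily called in these genes, since 58 of 59 lay at or above the median level of all genes. Their median SD between replicates was 0.025 (control) and 0.018 (Npac RNAi), against 0.053 and 0.050 over all genes. With only genes at or above the median level tested, 44 of 58 were lower and 5 higher, against 26.5% and 42.1% of all such genes. Their median log2 difference, Npac RNAi minus control RNAi, was -0.26 (middle range from -0.40 to -0.14), beside a median of -0.04 over all 18193 genes. The called decreases ran from 1.15-fold for Kif22, a chromosome-arm kinesin, to 1.60-fold for the Aurora kinase gene Aurka. Only 4 genes fell by at least 1.5-fold, Aurka, Top2a, Bub1b and Cenpa, against 2.04% of all genes, and 0 rose by as much, against 8.09% (limma adjusted p under 0.05, with 3 higher at an unadjusted p under 0.05 at any fold). In 54 of the 59 genes the values of both groups did not overlap, which held for 74.2% of all genes, dimmer ones included. In RNA from whole cultures, fewer cells in mitosis and less of these RNAs in each cell cannot be told apart.

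**Figure D1:**
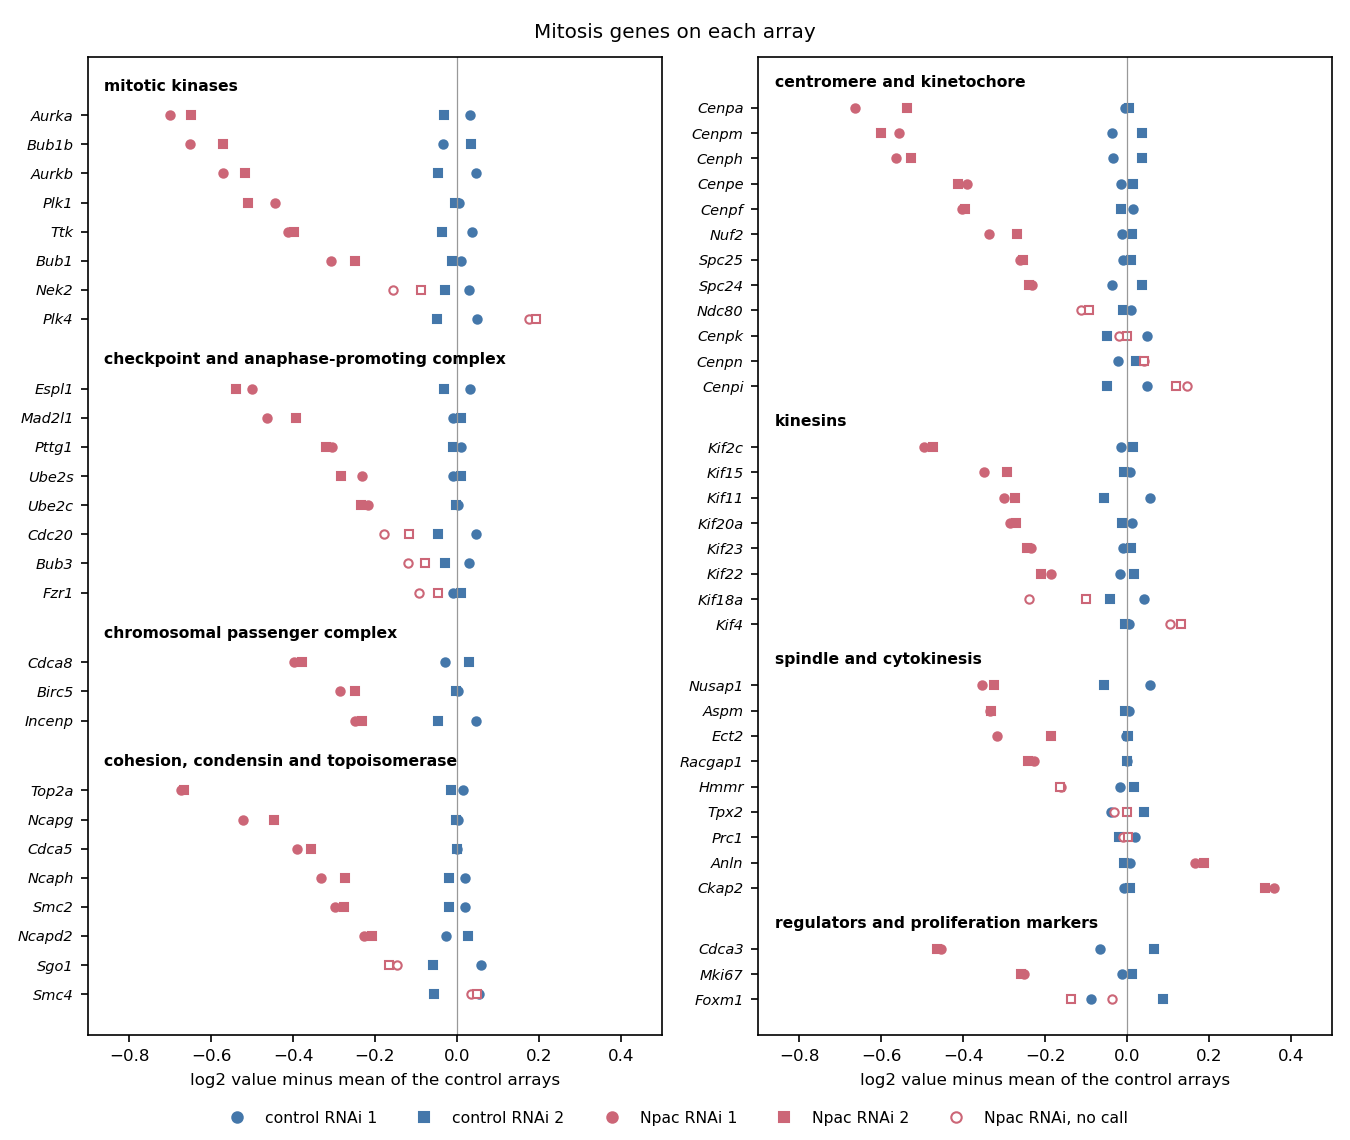
Each row is a mitosis gene, and the horizontal axis gives its log2 value on each array minus the mean of the control arrays; circles are replicate 1, squares replicate 2, blue control RNAi and rose Npac RNAi, with open rose symbols where the gene was not called. The rose symbols lie left of the blue ones for Aurka, Top2a and Cenpa and right of them for Ckap2 and Anln (on the deposited scale; both are below 0 with spike-in scaling), while the symbols of Prc1, Tpx2 and Cenpk lie within or close to the spread of the control arrays.

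Replicate arrays correlated at 0.998 in both groups over probe sets with 1 symbol, and arrays of different groups at 0.985 to 0.988. Glyr1 stood at 11.30 and 11.32 on the control arrays and at 10.23 and 10.20 on the Npac RNAi arrays, which is 46.9% of the control level (log2 difference -1.09, SE 0.0458, limma adjusted p = 0.00101, n = 2 per group). Embryonic stem cell markers were present on all arrays, with a list mean of 12.36 on both control arrays and of 11.80 and 11.83 on the Npac RNAi arrays. At a limma adjusted p under 0.05, 7 of 8 were lower and 0 higher, against 18.7% and 22.1% of all genes. With spike-in scaling 8 of 8 were lower, against 81.9% of all genes. Trophoblast markers had list means of 7.67 and 7.64 on the control arrays and of 9.03 and 9.07 on the Npac RNAi arrays. At the same threshold 7 of 9 were higher and 0 lower. With spike-in scaling 5 were higher and 1 lower, against 4.98% and 81.9% of all genes. Fibroblast markers, which would show feeder cells, gave 2 higher and 2 lower of 10, near the shares of all genes, with list means from 6.01 to 6.11. With spike-in scaling 1 was higher and 8 lower, also beside 4.98% and 81.9% of all genes. No array holds a value of 0 on this scale, so absence of a marker cannot be read from it. Cdkn1a, the gene of the cell cycle inhibitor p21, was at 10.15 and 10.18 on the control arrays and at 11.86 and 11.85 on the Npac RNAi arrays (3.22-fold higher, limma adjusted p = 0.000704). The part of these shifts in the mitosis gene values was not tested.

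The number of calls depended on the arrays used and on the scaling. Without control array 1, 19 mitosis genes were called lower (8.20% of all genes), without control array 2 there were 17 (5.43%), without Npac array 1 there were 20 (10.8%) and without Npac array 2 there were 18 (6.82%). In these fits the median of the 59 was -0.27 (control 1 left out), -0.27 (control 2), -0.25 (Npac 1) and -0.28 (Npac 2). The medians over all genes were -0.04, -0.03, -0.04 and -0.03. Setting the arrays to equal poly-A spike-in signal, from RNAs added before labelling that read 0.54 higher on the Npac RNAi arrays, gave 58 mitosis genes lower and 0 higher at a limma adjusted p under 0.05 (58 at an unadjusted p under 0.05), where 81.9% of all genes were lower and 4.98% higher. Without moderation of the variances by limma, 22 were lower and 2 higher, against 5.46% and 8.56% of all genes. At a limma adjusted p under 0.01, 19 were lower and 1 higher, against 5.57% and 11.6%. Centring each array on the median of its 18193 gene values, which moved every difference by -0.14, gave 48 lower and 1 higher, with 39.4% of all genes lower, and quantile normalization gave 46 and 2, with 22.6% lower.

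**Figure D2:**
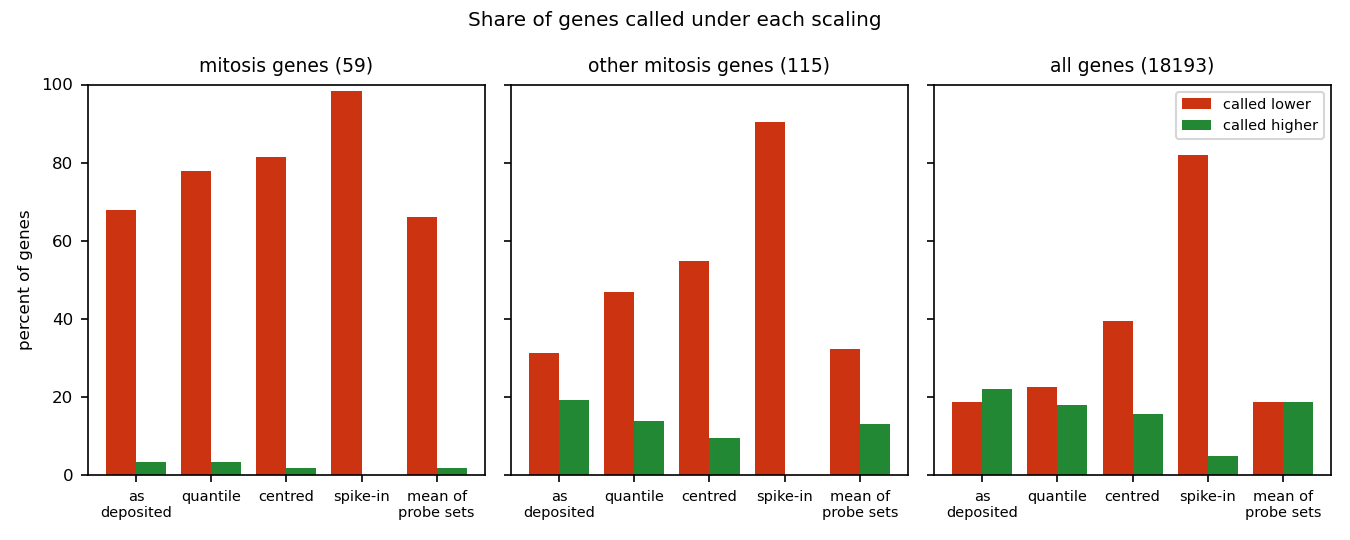
Bars give the percent of genes called lower (red) and higher (green) at a limma adjusted p under 0.05, for the 59 mitosis genes, for 115 other mitosis genes and for all 18193 genes, under 5 treatments of the deposited values. The red bar of the 59 genes stands at 67.8% as deposited, above the 18.7% of all genes, and with spike-in scaling the red bar of all genes reaches 81.9%.

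**Figure D3:**
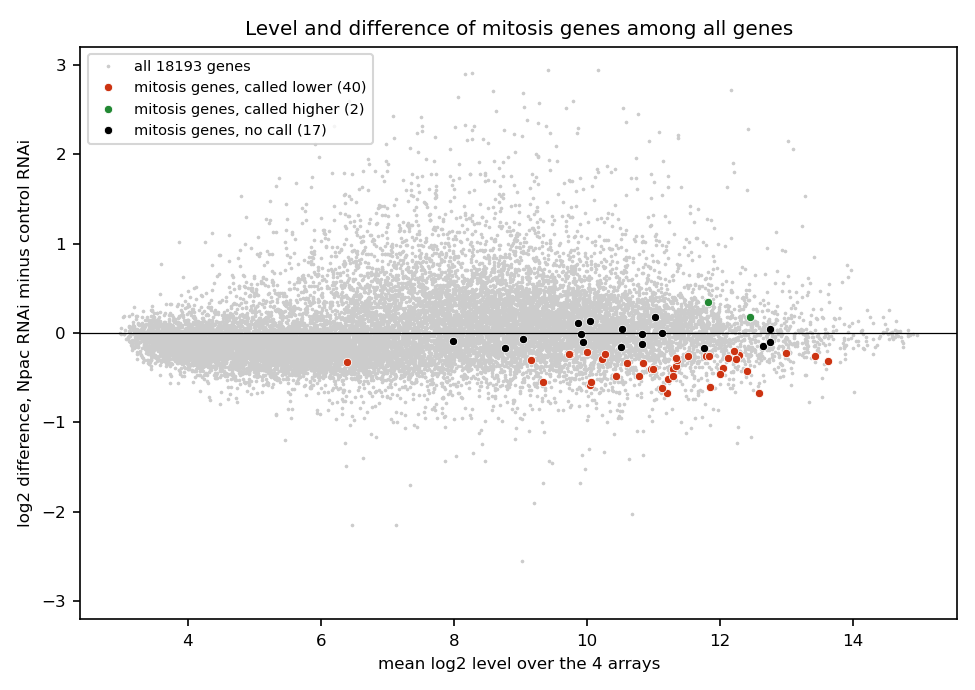
Each grey point is 1 of 18193 genes, placed by its mean log2 level over the 4 arrays and its log2 difference between Npac RNAi and control RNAi, with the mitosis genes in red (called lower), green (called higher) and black (not called). The mitosis genes lie in a narrow band between -0.67 and 0.35, with the genes called lower beneath the zero line and few points near the edges of the grey cloud.

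Promoters of the mitosis genes were read for the features that late cell cycle genes are known for. Because the list was drawn from mitosis genes, shares above those of all genes describe the list and not the response to Npac RNAi. The core of the cell cycle homology region is TTTGAA, and CCAAT is the box bound by NF-Y, and both were searched on either strand (TTCAAA and ATTGG on the other) in the 250 bases before to 50 bases after each start. RefSeq promoters of GRCm38.p6 were at hand for 52 of the 59 genes in 57 windows, and not for Aurkb, Foxm1, Incenp, Kif20a, Smc4, Spc24 and Tpx2. TTTGAA was found for 34 of the 52 genes (65.4%), against 15.7% of 14452 tested genes with a promoter and 20.2% of 27025 genes in the whole table. CCAAT was found for 38 (73.1%), against 42.0% and 41.1%, and both for 29 (55.8%), against 6.21% and 7.97%. Matches of the 2 motifs overlapped in 1 gene. Within 50 bases either side of the start, a window chosen after the positions were seen, TTTGAA was found for 57.7% of the mitosis genes and for 4.09% of tested genes. Among the mitosis genes, TTTGAA was found for 25 of 36 called lower and for 9 of 16 not called lower, and CCAAT for 26 of 36 and 12 of 16. A match is a description of the letters and not evidence of binding.

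The 150 bases before the start are printed for 5 genes called lower (Top2a, Ube2c, Espl1, Kif11 and Ncapg), for Cdc20, which was not called, and for Ckap2, which was called higher, because in each the TTTGAA core lies before the start and can be seen beside the response of the gene. Sequences are RefSeq, GRCm38.p6, in the direction of transcription, with TTTGAA and CCAAT in capitals wherever they lie on either strand.
Top2a, chr11:99024190-99024339, minus strand: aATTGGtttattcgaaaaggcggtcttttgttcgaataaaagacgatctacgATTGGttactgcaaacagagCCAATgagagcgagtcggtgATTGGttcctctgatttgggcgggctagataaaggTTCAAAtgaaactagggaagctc
Ube2c, chr2:164769779-164769928, plus strand: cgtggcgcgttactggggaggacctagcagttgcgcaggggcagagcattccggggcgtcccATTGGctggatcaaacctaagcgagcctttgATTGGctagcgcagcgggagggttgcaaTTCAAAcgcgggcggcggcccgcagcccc
Espl1, chr15:102296143-102296292, plus strand: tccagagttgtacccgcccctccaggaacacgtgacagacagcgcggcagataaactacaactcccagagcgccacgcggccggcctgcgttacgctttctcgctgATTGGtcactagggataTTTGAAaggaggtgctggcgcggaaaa
Kif11, chr19:37376232-37376381, plus strand: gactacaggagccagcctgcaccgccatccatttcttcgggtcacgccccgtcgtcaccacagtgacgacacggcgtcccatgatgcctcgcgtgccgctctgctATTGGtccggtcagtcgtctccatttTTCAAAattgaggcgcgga
Ncapg, chr5:45669775-45669924, plus strand: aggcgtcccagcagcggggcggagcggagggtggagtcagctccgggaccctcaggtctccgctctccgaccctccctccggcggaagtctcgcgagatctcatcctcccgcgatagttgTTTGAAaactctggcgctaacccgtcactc
Cdc20, chr4:118437344-118437493, minus strand: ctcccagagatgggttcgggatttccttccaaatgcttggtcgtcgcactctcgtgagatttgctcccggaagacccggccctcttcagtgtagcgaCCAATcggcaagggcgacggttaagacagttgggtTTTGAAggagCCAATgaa
Ckap2, chr8:22185820-22185969, minus strand: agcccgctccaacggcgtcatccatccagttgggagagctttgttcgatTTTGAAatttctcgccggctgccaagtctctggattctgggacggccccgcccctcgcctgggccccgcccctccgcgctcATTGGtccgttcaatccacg
Counting back from the start, with the base before it as -1, the first base of the core lies at -23 in Top2a, -29 in Ube2c, -27 in Espl1, -19 in Kif11, -30 in Ncapg and -18 in Cdc20. In Ckap2 it lies farther out, at -101. In Aurka and Plk1 it lies after the start, at 33 and 31. Neither string of letters is in the windows of 9 genes, Birc5, Kif18a, Mad2l1, Ncaph, Nuf2, Nusap1, Plk4, Pttg1 and Ube2s, of which 7 were called lower.

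Mitotic kinases had the largest median decrease of the 8 roles, -0.44 on the log2 scale. At a limma adjusted p under 0.05, 6 of 8 were lower and 0 higher, against 18.7% and 22.1% of all genes. At an unadjusted p under 0.05, 6 were lower and 1 higher. Aurka, the kinase that matures centrosomes and builds the spindle, read 11.58 and 11.52 on the control arrays and 10.85 and 10.90 on the Npac RNAi arrays. Both Npac RNAi arrays were below both control arrays, a 1.60-fold decrease (-0.67, SE 0.0529, limma adjusted p = 0.00289). Its second probe set gave a smaller difference (-0.25) that was not called. Bub1b, the checkpoint protein BubR1, read 11.40 and 11.46 against 10.78 and 10.86 (1.53-fold lower, SE 0.0574, limma adjusted p = 0.00406), and the groups did not overlap. Aurkb, the catalytic subunit of the chromosomal passenger complex, read 9.67 and 9.58 against 9.05 and 9.10 (1.46-fold lower, limma adjusted p = 0.00521), and Plk1, the Polo-like kinase of mitotic entry and exit, 10.68 and 10.67 against 10.23 and 10.17 (1.39-fold lower, limma adjusted p = 0.00508). In both genes every Npac RNAi array was below every control array. The checkpoint kinases Ttk (-0.40) and Bub1 (-0.28) fell too.

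The other 2 kinases, Plk4 and Nek2, were not called. Plk4, which starts centriole duplication, was at 0.18 (95% interval 0.03 to 0.34, limma adjusted p = 0.0616). Its probe sets disagreed, since another was called lower (-0.23), and with spike-in scaling the gene was at -0.36. Nek2, which splits the centrosomes, was at -0.12 (95% interval -0.27 to 0.02), and the probe set with the largest interquartile range read 0.23.

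Of 8 genes of the spindle checkpoint, the anaphase-promoting complex and sister separation, 5 were lower and 0 higher (limma adjusted p under 0.05). The shares over all genes were 18.7% and 22.1%. At an unadjusted p under 0.05 the counts were also 5 and 0. All 8 were below 0, with a median of -0.24. Espl1, the gene of separase, read 11.51 and 11.45 on the control arrays and 10.98 and 10.94 on the Npac RNAi arrays (1.43-fold lower, SE 0.0515, limma adjusted p = 0.00454). Mad2l1, the checkpoint protein that holds Cdc20 inactive, read 12.62 and 12.64 against 12.17 and 12.24 (1.35-fold lower, limma adjusted p = 0.00674). Pttg1, securin, the inhibitor of separase, read 13.80 and 13.78 against 13.49 and 13.47 (1.24-fold lower, limma adjusted p = 0.0105), and its other probe sets gave larger decreases, of -0.49 and -0.72. The separase gene and the gene of its inhibitor thus both fell, each with no overlap between the groups. The ubiquitin-conjugating enzymes that serve the complex, Ube2c (-0.23) and Ube2s (-0.26), fell by less.

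The activators of the anaphase-promoting complex were not called. Cdc20 read 12.77 and 12.68 on the control arrays and 12.55 and 12.61 on the Npac RNAi arrays (-0.15, 95% interval -0.31 to 0.01, limma adjusted p = 0.111), and it was called lower when its 3 probe sets were averaged (-0.20, limma adjusted p = 0.0324). Fzr1, the activator Cdh1 of late mitosis and G1, was at -0.07 (95% interval -0.20 to 0.06). Bub3, a checkpoint scaffold, was at -0.10 (95% interval -0.24 to 0.04). These intervals leave room for decreases of the size seen in Ube2c for Cdc20 and Bub3.

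The chromosomal passenger complex corrects faulty attachments and directs cytokinesis. Of its 3 genes listed beside Aurkb, 3 were lower and 0 higher (limma adjusted p under 0.05), against 18.7% and 22.1% of all genes. At an unadjusted p under 0.05 the counts were also 3 and 0. Cdca8, borealin, read 12.21 and 12.27 on the control arrays and 11.84 and 11.86 on the Npac RNAi arrays (1.31-fold lower, limma adjusted p = 0.0077). Birc5, survivin, read 12.40 on both control arrays and 12.12 and 12.15 after Npac RNAi (1.20-fold lower, limma adjusted p = 0.0158). Incenp, the scaffold that activates Aurora B, read 12.45 and 12.36 against 12.16 and 12.17 (1.18-fold lower, limma adjusted p = 0.0317). The decreases of these subunits were thus smaller than that of Aurkb, at 1.46-fold, but the difference between subunits was not tested.

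Among 8 genes of cohesion, condensin and DNA untangling, 6 were lower and 0 higher (limma adjusted p under 0.05), with a median of -0.29. The shares over all genes were 18.7% and 22.1%. At an unadjusted p under 0.05 the counts were also 6 and 0. Top2a, the topoisomerase that separates intertwined sister DNA, read 12.95 and 12.92 on the control arrays and 12.26 and 12.27 on the Npac RNAi arrays, a 1.59-fold decrease (-0.67, SE 0.0462, limma adjusted p = 0.00223). Ncapg, a regulatory subunit of condensin I, read 11.03 and 11.02 against 10.51 and 10.58 (1.40-fold lower, limma adjusted p = 0.00521). Cdca5, sororin, which protects cohesin until anaphase, read 11.53 on both control arrays and 11.13 and 11.17 after Npac RNAi (1.30-fold lower, limma adjusted p = 0.00731). In none of these 3 genes did the groups overlap. The condensin I genes Ncaph (-0.30), Smc2 (-0.29) and Ncapd2 (-0.22) fell as well.

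The other two genes of this role were not called. Smc4, the partner of Smc2 in the condensin ring, was at 0.04 (95% interval -0.12 to 0.20, limma adjusted p = 0.601) with overlapping groups, and at -0.50 with spike-in scaling. Smc2 fell in each of its 5 probe sets, by -0.29 in the one used for the gene and by up to -0.91 in another. Sgo1, shugoshin, which shields centromeric cohesin, was at -0.16 (95% interval -0.32 to 0.01) and was not called.

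Centromere and kinetochore genes were lower in 8 of 12 and higher in 0 (limma adjusted p under 0.05), with a median of -0.28. The shares over all genes were 18.7% and 22.1%. At an unadjusted p under 0.05 the counts were also 8 and 0. Cenpa, the histone H3 variant that marks centromeres, read 12.15 and 12.16 on the control arrays and 11.49 and 11.62 on the Npac RNAi arrays (1.52-fold lower, SE 0.0625, limma adjusted p = 0.00499). Averaging its 3 probe sets gave -0.28, the added ones being dim, at mean log2 levels of 4.65 and 3.83 against 11.85. Cenpm, a subunit of the constitutive centromere network, read 10.30 and 10.37 against 9.78 and 9.73 (1.49-fold lower, limma adjusted p = 0.00391), and its fellow subunit Cenph read 10.30 and 10.37 against 9.77 and 9.81 (1.46-fold lower, limma adjusted p = 0.0043). In these genes both Npac RNAi arrays lay below both control arrays. The large coiled-coil proteins of the outer kinetochore, the kinesin Cenpe (-0.40) and Cenpf (-0.40), fell too.

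Among the 12 genes, 3 further subunits of that network, Cenpk, Cenpn and Cenpi, were not called. Cenpk was at -0.01 (95% interval -0.16 to 0.14), Cenpn at 0.04 (95% interval -0.09 to 0.17) and Cenpi at 0.13 (95% interval -0.02 to 0.29), with the last 2 below 0 under spike-in scaling (-0.50 and -0.41). The 4 genes of the Ndc80 complex, which grips the microtubule, gave 3 decreases, in Nuf2 (-0.30), Spc25 (-0.26) and Spc24 (-0.23), while Ndc80 itself was at -0.10 (95% interval -0.23 to 0.02, limma adjusted p = 0.145). The intervals of Cenpk, Cenpn and Cenpi do not reach the decreases of Cenpm or Cenph, but the differences between genes were not tested.

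Of 8 kinesins, the motors that move chromosomes and shape the spindle, 6 were lower and 0 higher (limma adjusted p under 0.05). Their median was -0.26, and the shares over all genes were 18.7% and 22.1%. At an unadjusted p under 0.05 the counts were also 6 and 0. Kif2c, which takes microtubules apart at centromeres, read 11.52 and 11.55 on the control arrays and 11.04 and 11.06 on the Npac RNAi arrays (1.40-fold lower, SE 0.0465, limma adjusted p = 0.00426). Kif15, a spindle motor, read 6.56 and 6.55 against 6.20 and 6.26 (1.25-fold lower, limma adjusted p = 0.0117). Kif11, Eg5, which pushes the spindle poles apart, read 10.44 and 10.32 against 10.08 and 10.10 (1.22-fold lower, limma adjusted p = 0.0243), with a decrease of -0.93 in another of its 3 probe sets. The groups of these genes did not overlap. The cytokinesis motors Kif20a (-0.28) and Kif23 (-0.24) and the chromosome-arm motor Kif22 (-0.20) fell, whereas the chromokinesin Kif4 (0.12, 95% interval -0.01 to 0.24) and Kif18a (-0.17, 95% interval -0.36 to 0.02), which dampens chromosome movements, were not called. Kif4 was at -0.42 with spike-in scaling.

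Spindle and cytokinesis genes held both increases among the 59, with 4 of 9 lower, 2 higher and a median of -0.16. These shares, 44.4% and 22.2%, stand beside 18.7% and 22.1% of all genes. The share called higher was thus near that of all genes and is not read as a result about the role. Nusap1, a microtubule-bundling protein, read 11.07 and 10.96 on the control arrays and 10.66 and 10.69 on the Npac RNAi arrays (1.27-fold lower, limma adjusted p = 0.0167). Aspm, a spindle pole protein, read 10.77 and 10.76 against 10.43 and 10.44 (1.26-fold lower, limma adjusted p = 0.00868), and its 5 probe sets were all called lower. Ect2, the exchange factor that activates RhoA for cytokinesis, read 11.64 and 11.65 against 11.33 and 11.46 (1.19-fold lower, limma adjusted p = 0.0396). The Npac RNAi arrays lay below the control arrays in each. Racgap1, the partner of Ect2 at the midzone, was lower (-0.23), but its dimmest probe set was called higher (0.28).

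Ckap2, a spindle microtubule protein, was the clearest exception. It read 11.65 and 11.66 on the control arrays and 12.01 and 11.99 on the Npac RNAi arrays, a 1.27-fold increase (0.35, SE 0.0458, limma adjusted p = 0.00823), which turned to -0.19 without a call under spike-in scaling. Leaving out 1 array moved its adjusted p to at most 0.0511. Anln, anillin, the scaffold of the contractile ring, read 12.37 and 12.36 against 12.53 and 12.55 (1.13-fold higher, limma adjusted p = 0.042), was called lower with spike-in scaling (-0.36) and was at 0.04 when its 2 probe sets were averaged. Tpx2, the activator of Aurora A, was at -0.02 (95% interval -0.16 to 0.13) beside a 1.60-fold decrease of Aurka. Averaging its 4 probe sets gave -0.29 (limma adjusted p = 0.0265), so the value for Tpx2 depended on the probe set. Prc1, which bundles midzone microtubules, was at -0.004 (95% interval -0.13 to 0.12), and Hmmr, a spindle assembly protein, at -0.16 (limma adjusted p = 0.0533).

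Foxm1, the transcription factor that activates late cell cycle genes, read 7.94 and 8.12 on the control arrays and 7.99 and 7.89 on the Npac RNAi arrays. The groups overlapped, and the difference was -0.09 (SE 0.0817, 95% interval -0.31 to 0.13, limma adjusted p = 0.433). None of its 4 probe sets was called. Mki67, the proliferation marker Ki-67 that coats mitotic chromosomes, read 11.95 and 11.98 against 11.71 and 11.71 (1.19-fold lower, limma adjusted p = 0.017). Cdca3, a trigger of mitotic entry, read 12.17 and 12.31 against 11.79 and 11.78 (1.37-fold lower, limma adjusted p = 0.00932). It was at -0.17 without a call when its 3 probe sets were averaged. The added probe sets were dim, at mean log2 levels of 5.62 and 3.62 against 12.01 for the one used.

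Probe sets gave a further view of the same arrays. The 59 genes were read by 138 probe sets. In a fit over all 34945 probe sets with 1 symbol, 80 of them were called lower (58.0%, against 16.0% of all) and 2 higher (against 17.4%). Those 2 were the probe set of Ckap2 and the dimmest of Racgap1. The brightest probe sets of Anln (limma adjusted p = 0.0616) and Kif22 (limma adjusted p = 0.0502) were not called in that fit. Of 41 genes with several probe sets, 16 had all of them called lower, 32 had at least 1 called lower and 9 had none called. The value used for a gene came from its brightest probe set, and in 26 of the 41 genes a dimmer probe set had a larger decrease. Every such gene has at least as many dimmer probe sets as brightest ones. The share over all genes was not computed, so this count is not read as a result about the brightest probe set. Cenpf was lower by -0.40 in the probe set used and by -1.43 (SE 0.0649, limma adjusted p = 0.0012) in another, and Ncapg by -0.48 and -1.20 (SE 0.0553, limma adjusted p = 0.0012). Averaging the probe sets of each gene ended the decreases of Cdca3, Kif23, Ncapd2, Racgap1 and Ube2s and the increase of Anln, and added decreases for Cdc20, Hmmr, Kif18a and Tpx2. Such averages include dim probe sets, for example at mean log2 levels of 5.56 in Ube2s, 4.48 in Kif23, 3.21 in Racgap1 and 3.35 in Kif18a. Which transcript forms these probe sets read was not tested.

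**Figure D4:**
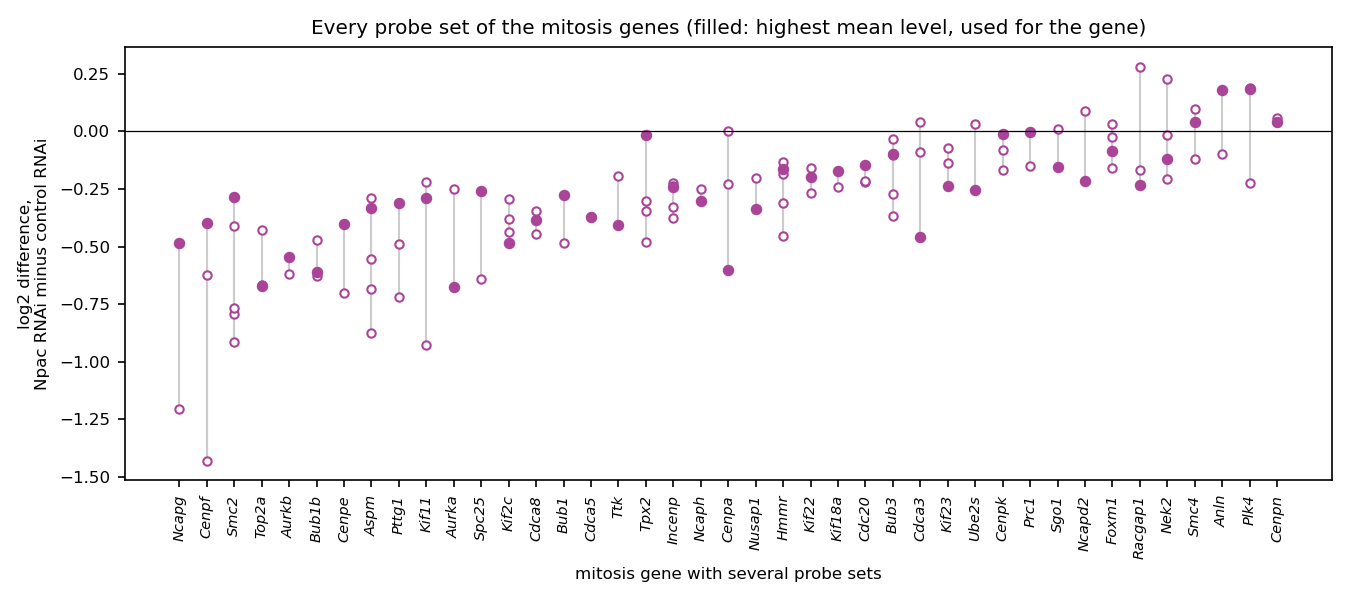
Each column is 1 of the 41 mitosis genes with several probe sets, ordered by their mean, and the vertical axis gives the log2 difference of each probe set between Npac RNAi and control RNAi, filled for the brightest probe set and open for the others. Cenpf and Ncapg reach -1.43 and -1.20 in an open symbol, and Racgap1, Nek2 and Plk4 have symbols on both sides of 0.

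Other genes of mitosis were listed by role, and 115 of them are described here (Ccnb1, the gene of cyclin B1, is not analysed here). Of these 36 were called lower and 22 higher, against 18.7% and 22.1% of all genes, with a median of -0.07. After centring the counts were 63 and 11, against 39.4% and 15.6% of all genes. With spike-in scaling they were 104 and 0 (104 at an unadjusted p under 0.05), against 81.9% and 4.98% of all genes. With 1 array left out, the median of the 115 was -0.05 (control 1), -0.08 (control 2), -0.05 (Npac 1) and -0.07 (Npac 2). Their share called lower, 31.3%, was thus nearer to that of all genes than the 67.8% of the 59, but the difference between the lists was not tested.

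Within CDK1, the cyclins and their regulators, 6 of 13 were lower and 4 higher (46.2% and 30.8%, against 18.7% and 22.1% of all genes). With spike-in scaling 12 were lower and 0 higher, against 81.9% and 4.98% of all genes. Cdk1, the kinase of mitotic entry, fell from 12.54 and 12.57 to 12.14 and 12.17 (1.31-fold lower, limma adjusted p = 0.00683), and Ccna2, cyclin A2, fell 1.15-fold. The phosphatase Cdc25a, which activates CDK complexes, fell by 0.41 on the log2 scale, and Wee1, the kinase that inhibits CDK1, rose (0.39, limma adjusted p = 0.0118) but was at -0.15 with spike-in scaling. Ensa, an inhibitor of the phosphatase PP2A, was called higher (0.30) from 1 probe set and lower (-0.34) from the other.

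Other kinetochore and centromere genes gave 7 lower and 4 higher of 28 (25% and 14.3%, against 18.7% and 22.1% of all genes), shares that are not read as a result about the list. Knl1, the platform on which Bub1 and BubR1 assemble, had the largest decrease among the 174 mitosis genes measured, each read from its brightest probe set, from 9.83 and 9.82 to 8.83 and 8.82 (50.1% of the control level, SE 0.0453, limma adjusted p = 0.00113). Ska1, which keeps kinetochores on microtubule ends, fell too (-0.59, limma adjusted p = 0.00641). Zwint, a Knl1 partner, rose from 11.50 and 11.46 to 12.18 and 12.16 (1.61-fold higher, limma adjusted p = 0.00225), and Cenpt, which links the centromere to the Ndc80 complex, rose 1.56-fold. With spike-in scaling both kept their sign without a call (0.15 and 0.10).

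Of 13 further genes of the anaphase-promoting complex 3 were lower and 5 higher (23.1% and 38.5%, against 18.7% and 22.1% of all genes), with a median of 0.12. After centring 5 were lower and 3 higher (38.5% and 23.1%, against 39.4% and 15.6%). With spike-in scaling 10 were lower and 0 higher (76.9% lower, against 81.9% and 4.98% of all genes). The shares called lower are not read as a result about the list. Fbxo5, Emi1, an inhibitor of the complex, fell 1.69-fold from 11.37 and 11.40 to 10.61 and 10.65 (limma adjusted p = 0.00192), and the subunit Anapc7 fell 1.27-fold. The subunits Anapc2 (1.38-fold) and Anapc4 (1.33-fold) rose as deposited but were below 0 with spike-in scaling (-0.08 and -0.13). Cohesin and condensin II gave 3 lower and 3 higher of 14, near the shares of all genes, with Esco2, the acetyltransferase that establishes cohesion, lower (1.72-fold, limma adjusted p = 0.0119), the ring subunit Smc1a lower (1.38-fold) and the cohesin subunits Stag1 (0.51) and Stag2 (0.52) higher, the last 2 at -0.03 and -0.02 with spike-in scaling.

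Of 32 other spindle, motor and cytokinesis genes 14 were lower and 4 higher, with a median of -0.17. These shares, 43.8% and 12.5%, stand beside 18.7% and 22.1% of all genes. The cytokinesis kinesin Kif14 fell 1.61-fold and the augmin subunit Haus8 1.46-fold, while Nedd1 (0.33), which recruits gamma-tubulin, and the augmin subunit Haus2 (0.30) rose, both being below 0 with spike-in scaling (-0.21 and -0.24). Of 15 genes of MuvB, DREAM and NF-Y, 3 were lower and 2 higher, also near or under the shares of all genes. Mybl2, the B-MYB activator of this programme, fell from 10.52 and 10.61 to 9.99 and 9.99 (1.48-fold lower, SE 0.0546, limma adjusted p = 0.00425), and E2f5, a repressive E2F, fell 1.53-fold. Rbl2, the pocket protein p130 of DREAM, rose (0.40, limma adjusted p = 0.016), as did the MuvB subunit Lin54 (0.21, limma adjusted p = 0.0468), and both were below 0 with spike-in scaling (-0.14 and -0.33). Averaging probe sets ended the calls of Haus2, Rbl2 and Lin54.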

How the data were processed

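RNA of 4 samples, 2 control RNAi and 2 Npac RNAi, was hybridised to single-channel Affymetrix arrays as biotin-labelled RNA made from 5 µg of total RNA, per the labels' protocols. The deposited values are log2 values per probe set made by the authors with RMA, per the submitters' processing notes, which name no version. The log base was inferred from their range, 2.78 to 15.05 without control probe sets. RMA brings arrays to a common scale (medians here 6.41 to 6.45), so a difference is measured against the other transcripts. Of 45101 probe sets, 34945 carried 1 symbol, updated through Entrez identifiers to RefSeq names (GRCm38.p6). Each of 18193 genes was read from its probe set with the highest mean. The test was limma's (version 3.58.1, R 4.3.3), from lmFit and eBayes without covariates, with Benjamini-Hochberg adjustment over all genes, a threshold of 0.05 and SE from the moderated variance. The script was tested on simulated data. The number of arrays limits the precision. The genes and lists were chosen with earlier results of these data known. Array values are given in each role for up to 3 lower and 2 higher called genes with the largest differences and for 7 set genes, and other mitosis genes are named for up to 2 in each direction per list plus Cdk1, Ccna2 and Mybl2. Alternatives were other empirical Bayes settings, scalings, filters, probe set choices, thresholds, a replicate block and each array left out.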

Additional observations from a re-analysis of the deposited data

Results flagged for a closer look

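The 24 poly-A spike-in probe sets, which lie outside the gene comparison, read 0.54 higher on the Npac RNAi arrays than on the control arrays (mean log2 difference, higher in 24 of 24). The 18 hybridisation control probe sets, added after labelling, read 0.12 higher, in 18 of 18.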

How the results depend on the processing

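Of the 59 mitosis genes, 46 were below 0 under all 20 settings run, some of which change the test and not the difference, and Kif15 was below 0 under the 19 that kept it. The share of all genes below 0 under every setting was not computed. With the deposited values, 52 of the 59 and 10210 of all 18193 genes were below 0. The number of calls depended on how the spread was estimated. As deposited, 40 were lower, 2 higher and 4 lower by at least 1.5-fold. Without variance moderation there were 22 lower and 2 past 1.5-fold, against 994 and 213 of all 18193 genes. At a limma adjusted p under 0.01 there were 19 lower and 1 higher, against 5.57% and 11.6% of all genes. With a fold threshold of 1.5 there were 4 and 0, against 2.04% and 8.09%. Leaving out each array in turn gave medians of the 59 from -0.28 to -0.25. Higher calls numbered 5 with a mean-variance trend (26.1% of all genes), 5 when dimmer genes, below the median level, were left out (42.1%), 1 with probe sets averaged (18.6%), 1 after centring and 0 with spike-in scaling. Decreases past 1.5-fold numbered 8 with quantile normalization (602 of all 18193 genes), 12 with centring (945) and 7 with cyclic loess (427). They numbered 49 with spike-in scaling (8994 of all genes) and 13 with the probe set of largest interquartile range (579). The median of the 59 was -0.32, -0.40, -0.80 and -0.30 with quantile, centring, spike-in scaling and that probe set choice. The median of all genes was -0.04 as deposited, -0.18 with centring and -0.58 with spike-in scaling. For the 115 other mitosis genes, lower and higher calls were 19 and 8 without moderation, 63 and 11 with centring, 104 and 0 with spike-in scaling, 17 and 8 at an adjusted p under 0.01, 6 and 2 past 1.5-fold, and 14 to 21 and 6 to 10 with 1 array left out.

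Among the genes named in the text, spike-in scaling turned the sign of Anln (-0.36), Cenpi (-0.41), Cenpn (-0.50), Ckap2 (-0.19), Kif4 (-0.42), Plk4 (-0.36), Smc4 (-0.50), Anapc2 (-0.078), Anapc4 (-0.13), Ensa (-0.24), Haus2 (-0.24), Lin54 (-0.33), Nedd1 (-0.21), Rbl2 (-0.14), Stag1 (-0.034), Stag2 (-0.024) and Wee1 (-0.15). By its construction it subtracts the spike-in difference from every gene. The probe set of largest interquartile range turned Nek2 (0.23), Plk4 (-0.23), Racgap1 (0.28) and Ensa (-0.34), and the mean of probe sets turned Ensa (-0.023). The cause was not tested.

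The groups share replicate numbers, but nothing in the labels says that a number pairs the samples, and the residuals of same-numbered arrays correlated at -0.17. With the replicate number as a block there were 22 lower and 1 higher among the 59 and 22 and 10 among the 115, against 9.15% and 14.9% of all genes. With the pairing crossed, a setting added after the data were seen, there were 38 lower and 1 higher among the 59, against 18.0% and 20.6% of all genes. With 2 residual degrees of freedom, the smallest decrease called among the 59 as deposited was 1.15-fold, and the 17 genes without a call are not shown to be unaffected.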
